A study of Mus musculus with 10 samples.

Results

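Genes of the extracellular matrix and its receptors were examined in the forebrain of newborn mice that lack Elavl3 and Elavl4. They comprise collagens, laminins, fibronectin, nidogen, SPARC, integrin subunits and the ADAMTS metalloproteinases. Members were chosen by a rule on gene symbols, which was set with earlier results of these data known. A symbol had to begin with Col, a digit and a, with Lama, Lamb, Lamc, Itga or Itgb followed by a digit, or with Adamts, or to be one of a few named matrix genes, and the probe set had to carry that symbol alone. This gave 59 genes out of 13534 named genes on the array. Of these, 24 were collagens, 15 ADAMTS and ADAMTS-like proteins, 8 laminins, 6 integrin alpha subunits and 2 integrin beta subunits. The remainder were Fn1, Nid1, Sparc and Itgb3bp, and the last encodes a protein that binds the integrin beta chain and is itself no integrin. Col1a1, Col4a1, Col4a2, Lama2, Itga1, Itgb1, Nid2, Dcn, Lum and Adamts1 are not analysed here.

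The wild-type group held 5 pups and the group of genotype Elavl3-/-;Elavl4-/- held 5, all at postnatal day 0 and all on mixed C57BL/6 and CD-1 background. Each pup gave 1 exon array from total RNA of the dissected forebrain, and no label names a tissue-specific allele or a pool of animals. The series is described as littermates, but no label says which animals belong together, and no pairs entered the comparison. A replicate number only names an animal. Values are log2 expression values as the authors normalized them with RMA, a method that corrects background, brings arrays to a common scale and summarises probes. A difference is always double knockout minus wild-type on that scale.

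The labels were checked on the targeted genes. Elavl3 averaged 11.11 in wild-type and 6.03 in double knockout animals, and Elavl4 averaged 7.58 and 6.26. Both passed limma's test over all probe sets with adjusted p of 3.15e-05 and 0.0130, and without wild-type replicate 4 Elavl4 no longer did (adjusted p = 0.0573). Forebrain neurons were represented by Dcx at 12.06 and Neurod6 at 11.27 in wild-type, against array medians of 5.05 to 5.24. Wild-type replicate 4 stood apart from the other arrays. Its highest correlation with any other array over probe sets was 0.946, whereas every other array reached 0.965 or more with some array, and its values were spread less widely (SD 1.72, against 1.77 to 1.82). Differences and counts below are therefore also given without it.

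The matrix is built by a small set of protein families. Fibrillar collagens such as the products of Col1a2 and Col3a1 form the fibres of the meninges and of vessel walls, and are made by fibroblasts. Laminins, nidogen and network-forming collagens assemble the basement membranes under the meninges and around brain vessels, onto which the end-feet of radial glia attach. Integrins are paired alpha and beta subunits on the cell surface that bind these proteins, and ADAMTS proteases trim collagen precursors and proteoglycans. In the newborn forebrain most of this matrix lies at the brain surface and in blood vessels. In whole tissue, fewer cells of a type and less RNA per cell cannot be told apart.

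Collagens lay slightly below wild-type in the double knockout, while laminins, fibronectin and most ADAMTS genes lay close to it. Of 24 collagens, 23 had a difference below 0, with a median of -0.13. Of the 35 other genes, 24 were below 0, with a median of -0.04. Over all 13534 named genes 60.3% were below 0 and the median was -0.03, so a direction below 0 was common on these arrays. All 59 genes together gave 47 below 0 and a median of -0.07. Without wild-type replicate 4 the collagens had 23 of 24 below 0 and a median of -0.10, with Col6a5 above 0 in place of Col12a1, the other genes 23 of 35 and -0.04, and all named genes 61.8% and -0.03. The collagens were put together as 1 group after their values had been seen, and no test is given for their shared direction.

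None of the 59 genes passed limma's test at an adjusted p of 0.05 over all 65529 probe sets, in which 0.00763% of probe sets passed. None passed without wild-type replicate 4 either, or in limma fits with trended and robust moderation, on named probe sets alone, or after quantile normalization. At an unadjusted p under 0.05 limma gave 1 gene lower, Col6a4, and 0 higher. That is 1.69% of the genes, against 1.54% of all named genes lower and 0.598% higher. Other settings gave 0 to 5 lower and 0 higher, and for most of them no share of all named genes is given. Without wild-type replicate 4 the count was again 1 lower and 0 higher, against 1.36% and 0.554% of all named genes. Intervals were narrow for most members. The 95% intervals of 57 of 59 genes stayed inside 1.5-fold in either direction, all but those of Col28a1 and Col6a4. That of Col28a1 also passed 2-fold, and the other 58 did not.

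**Figure D1:**
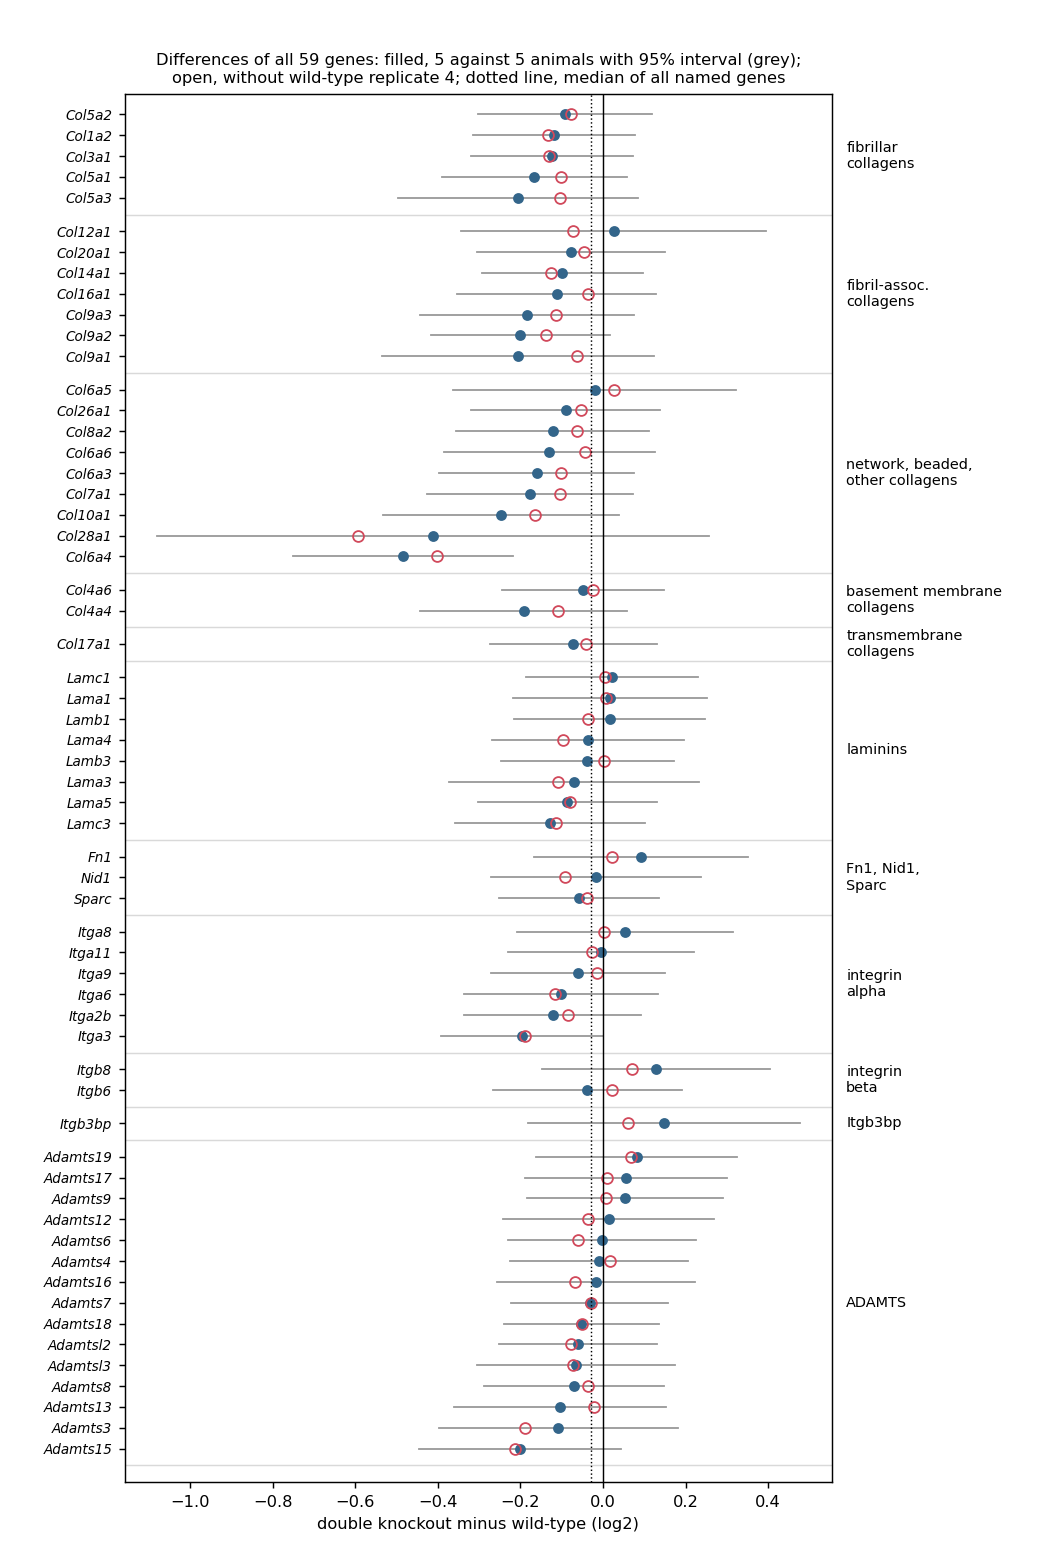
Difference between double knockout and wild-type (horizontal axis, log2) for each of the 59 genes, grouped by protein class; filled points use 5 against 5 animals with the 95% interval as a grey line, open points leave out wild-type replicate 4, and the dotted line is the median of all named genes at -0.03. Filled points of 23 of 24 collagens lie left of 0, and the intervals of all genes but Col6a4 include 0.

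In 3 of the 59 genes every double knockout value lay below every wild-type value. They were Col6a4, Col9a2 and Itga3, and in no gene did the groups separate the other way. This is 5.08% of the genes, against 0.754% of all named genes that separated as lower and 0.214% as higher. Without wild-type replicate 4 there were 4 such genes, Col14a1 being added, or 6.78%, against 1.3% lower and 0.34% higher over all named genes. Col9a2, Itga3 and Col14a1 are named because their values separated the groups, which was seen first. Such separation fixes the exact permutation p at its smallest possible value, 0.00794 with 5 against 5 animals and 0.0159 with 5 against 4. For genes picked by separation that p adds no support. Col14a1 was at -0.10, and at -0.13 without wild-type replicate 4, and averaged 5.71, a level that may lie near background. Col6a4, Col9a2 and Itga3 are described in turn.

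Col6a4 encodes a chain of beaded collagen VI. It measured 6.99, 6.92, 6.72, 7.28 and 6.85 in wild-type replicates 1 to 5 and 6.48, 6.46, 6.30, 6.49 and 6.61 in the double knockout. The lowest wild-type animal, at 6.72, was above the highest double knockout animal, at 6.61. The means were 6.95 ± 0.21 and 6.47 ± 0.11 (SD, n = 5 each). They differed by -0.48 with an SE of 0.122 and a 95% interval of -0.75 to -0.22, which is 1.40-fold. The exact permutation p was 0.00794, the smallest possible with 5 against 5 animals, and limma's adjusted p over all probe sets was 0.774. Without wild-type replicate 4, the highest animal, the difference was -0.40 with an exact permutation p of 0.0159, again the smallest possible. The gene has 4 probe sets on the array. The other 3 differed by -0.38, -0.20 and 0.00, and the first of these was at 0.04 without wild-type replicate 4. In each of these 3 the groups overlapped, with and without that animal, so the separation was seen in the brightest probe set alone. Its neighbours in the gene family, Col6a5 and Col6a6, are encoded beside it on chromosome 9 and were at -0.02 and -0.13, or 0.03 and -0.04 without wild-type replicate 4.

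Col9a2 encodes a chain of collagen IX, which decorates fibrils of collagen II in cartilage. Wild-type values were 7.64, 7.73, 7.69, 8.0 and 7.70, and double knockout values 7.51, 7.57, 7.58, 7.53 and 7.57. Wild-type replicate 4 was the high value, and the other wild-type animals lay just above the double knockout range. The difference was -0.20 (SE 0.0989, limma's adjusted p = 0.825, exact permutation p = 0.00794), and -0.14 without wild-type replicate 4. The other chains of collagen IX had differences of the same sign, -0.21 for Col9a1 and -0.18 for Col9a3. For Col9a1 that value rested on wild-type replicate 4, at 6.61 against 5.84 to 6.00 in the other wild-type animals, and was -0.06 without it. For Col9a3 it was -0.11 without it.

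Itga3 encodes the alpha subunit of a laminin receptor found on radial glia and migrating neurons. It measured 7.52, 7.44, 7.43, 7.53 and 7.59 in wild-type and 7.29, 7.36, 7.30, 7.21 and 7.37 in double knockout animals. The groups were tight and did not overlap, and wild-type replicate 4 lay inside the wild-type range. The difference was -0.20 (SE 0.0893, 95% interval -0.39 to 0.0003), with an exact permutation p of 0.00794 and limma's adjusted p = 0.811. Leaving out wild-type replicate 4 gave -0.19. Col6a4 lies on chromosome 9 and Col9a2 on chromosome 4, the chromosomes of Elavl3 and Elavl4, while Itga3 lies on chromosome 11. Of the 59 genes, 11 lie on chromosome 9 and 4 on chromosome 4. The part of linkage to the targeted alleles was not tested.

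The promoter windows of these genes and of Col3a1 are shown because their values separate the groups best, or, for Col3a1, because it stands for the fibrillar collagens described next. Each window holds 300 bases, 250 before a start site and 50 after it, 5′ to 3′ on the gene's strand, taken from RefSeq on GRCm38.p6. Capitals mark 3 motifs searched on both strands. These are the TATA box, read as TATAAA or TTTATA, the CCAAT box, read as CCAAT or ATTGG, and the GC box, read as GGGCGG or CCGCCC. No matches overlap here. The windows are chr1:45311288-45311587 on the plus strand for Col3a1, chr9:106096642-106096941 on the minus strand for Col6a4, chr4:121039316-121039615 on the plus strand for Col9a2 and chr11:95076665-95076964 on the minus strand for Itga3, the outermost of its 2 windows.
Col3a1: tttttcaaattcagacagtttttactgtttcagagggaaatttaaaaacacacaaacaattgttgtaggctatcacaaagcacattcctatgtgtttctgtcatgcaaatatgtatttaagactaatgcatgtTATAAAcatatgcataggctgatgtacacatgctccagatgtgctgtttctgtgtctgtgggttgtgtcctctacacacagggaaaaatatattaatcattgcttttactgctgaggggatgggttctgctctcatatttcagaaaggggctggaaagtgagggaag
Col6a4: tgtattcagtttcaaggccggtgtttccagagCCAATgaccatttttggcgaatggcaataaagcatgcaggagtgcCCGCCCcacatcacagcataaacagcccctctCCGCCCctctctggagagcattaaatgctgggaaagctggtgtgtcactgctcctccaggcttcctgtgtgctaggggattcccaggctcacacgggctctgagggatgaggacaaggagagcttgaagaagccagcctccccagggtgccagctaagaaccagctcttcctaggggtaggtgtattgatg
Col9a2: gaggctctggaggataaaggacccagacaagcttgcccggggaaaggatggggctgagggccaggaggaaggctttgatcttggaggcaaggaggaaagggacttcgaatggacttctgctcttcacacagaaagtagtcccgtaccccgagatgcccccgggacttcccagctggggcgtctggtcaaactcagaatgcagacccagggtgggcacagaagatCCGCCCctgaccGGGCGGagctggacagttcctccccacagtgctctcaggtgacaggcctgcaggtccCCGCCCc
Itga3: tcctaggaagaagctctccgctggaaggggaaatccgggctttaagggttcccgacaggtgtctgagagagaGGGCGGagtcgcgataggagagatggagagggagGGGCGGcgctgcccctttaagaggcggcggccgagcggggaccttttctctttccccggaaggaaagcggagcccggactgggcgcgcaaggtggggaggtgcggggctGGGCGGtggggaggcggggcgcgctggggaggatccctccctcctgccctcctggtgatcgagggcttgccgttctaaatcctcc
The Col3a1 window holds 1 match to the TATA box, which begins 117 bases before the start, and neither other motif. That window is 37.7% G and C. The Col6a4 window holds 1 CCAAT box and 2 GC boxes, and those of Col9a2 and Itga3 hold 3 GC boxes each. Of all 32851 windows in the same table, 13.6% hold the TATA box, 37.4% the CCAAT box and 35.7% the GC box on either strand. These matches describe the letters and do not show a site in use. Of the 59 genes, 40 have a window in the table.

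Fibrillar collagens lay below 0 in all 5 measured members, with a median of -0.12, and -0.10 without wild-type replicate 4. Col3a1, the chain of collagen III in meninges and vessel walls, measured 7.94, 7.92, 7.91, 7.92 and 8.03 in wild-type and 7.73, 7.77, 7.87, 7.93 and 7.80 in double knockout animals. Of the double knockout animals only replicate 4, at 7.93, reached into the wild-type range. The means were 7.94 ± 0.05 and 7.82 ± 0.08 (SD, n = 5 each). They differed by -0.12 with an SE of 0.0895 and a 95% interval of -0.32 to 0.07, which is 1.09-fold. The exact permutation p was 0.0317 and limma's adjusted p 0.860, and without wild-type replicate 4 the difference was -0.13.

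Col1a2, the second chain of collagen I, was much like it. Wild-type animals were at 8.74, 8.84, 8.81, 8.74 and 8.85, and double knockout animals at 8.57, 8.67, 8.76, 8.65 and 8.74. The difference was -0.12 with an exact permutation p of 0.0476 (limma's adjusted p = 0.867), and -0.13 without wild-type replicate 4. Double knockout replicate 1 was lowest, and replicates 3 and 5 reached the wild-type range. The chains of collagen V, which start and thin collagen I fibrils, were at -0.17 for Col5a1, -0.09 for Col5a2 and -0.21 for Col5a3. In Col5a1 and Col5a3 wild-type replicate 4 was the highest animal, at 7.44 and 7.13, and without it their differences were -0.10 and -0.10. Col5a2 was at -0.08 without it, and a second, dimmer probe set of that gene differed by 0.20 in both fits.

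**Figure D2:**
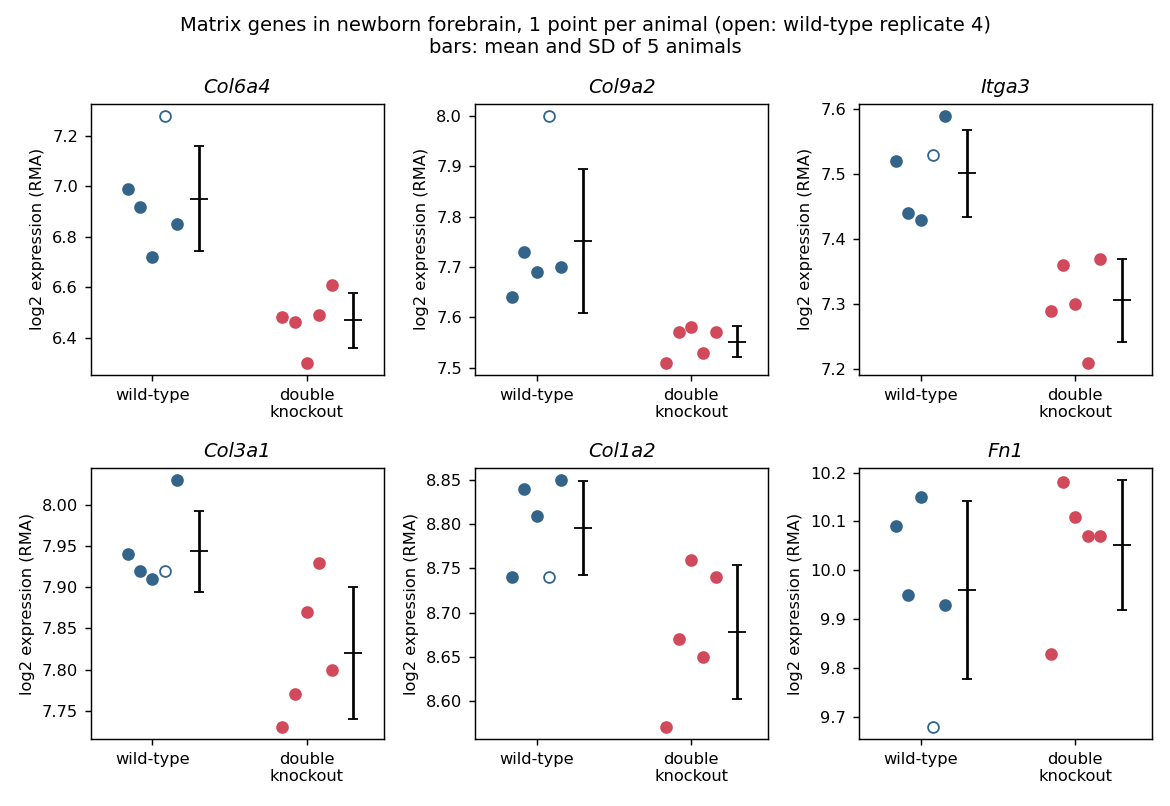
Log2 expression (vertical axis, RMA) of 6 matrix genes with 1 point per animal, wild-type on the left and double knockout on the right; the open point is wild-type replicate 4 and bars give the mean and SD of 5 animals. Groups do not overlap for Col6a4, Col9a2 and Itga3, overlap at the edge for Col3a1 and Col1a2, and overlap fully for Fn1, where wild-type replicate 4 is the lowest point at 9.68.

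Network-forming, beaded and other collagens were below 0 in 9 of 9 members (median -0.16), and in 8 of 9 without wild-type replicate 4 (median -0.10). Col28a1 varied more between animals than any other of the 59 genes, with a residual SD of 0.546. It measured 6.88, 6.98, 6.96, 6.14 and 7.34 in wild-type and 7.29, 6.49, 6.49, 6.47 and 5.50 in the double knockout. The groups overlapped widely, and the difference of -0.41 had a 95% interval from -1.08 to 0.26. It was -0.18 without double knockout replicate 5, the lowest animal, and -0.59 without wild-type replicate 4. Those animals are neighbours by animal number. In every pair by nearest number the double knockout animal was the lower, though no label says that such pairs are littermates. Limma with these pairs as a block gave an unadjusted p of 0.0111 and an adjusted p of 0.667. Of the 2 dimmer probe sets of Col28a1, one was at 0.30 and the other at -0.39, or 0.49 and -0.27 without wild-type replicate 4. Col10a1, a cartilage collagen of growing bone, was at -0.25 (95% interval -0.53 to 0.04), and at -0.17 without wild-type replicate 4, and averaged 5.08 and 4.83 over 5 animals each. Col6a5 ran from 5.91 to 6.75 among double knockout animals and from 6.18 to 6.51 in wild-type.

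Fibril-associated collagens were below 0 in 6 of 7 members (median -0.11, or -0.07 without wild-type replicate 4, when all 7 were below 0). The exception was Col12a1, at 0.03, and at -0.07 without that animal. It varied widely in both groups, from 6.70 to 7.34 in wild-type and from 6.74 to 7.48 in double knockout animals, and after quantile normalization its difference was -0.01. Basement membrane collagens were represented by Col4a4 at -0.19 and Col4a6 at -0.05, which were -0.11 and -0.02 without wild-type replicate 4. Col17a1, a transmembrane collagen of epithelial attachment, was at -0.07, and at -0.04 without it.

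Laminins stood near 0. Of 8 members 5 were below 0, with a median of -0.04, and -0.06 without wild-type replicate 4. Lamc1, the gamma chain shared by most laminins, measured 9.46, 9.40, 9.43, 9.34 and 9.43 in wild-type and 9.27, 9.40, 9.44, 9.59 and 9.47 in double knockout animals. Its means of 9.41 ± 0.05 and 9.43 ± 0.12 (SD, n = 5 each) differed by 0.02, with a 95% interval of -0.19 to 0.23. Lamb1, a beta chain of the same trimers, was at 0.02 (95% interval -0.22 to 0.25). Both values were below 0 after quantile normalization, at -0.01 for Lamc1 and -0.02 for Lamb1. Lamc1 was at 0.00 and Lamb1 at -0.04 without wild-type replicate 4. Lama4, an alpha chain of vessel basement membranes, was at -0.04, and at -0.10 without that animal. Lama1, the alpha chain of early and meningeal basement membranes, was at 0.02 and 0.01. Lama3, a chain of epithelial laminins, varied most in the class, from 5.77 to 6.32 in wild-type and from 5.73 to 6.15 in the double knockout, and its difference was -0.07, or -0.11 without it. The lowest value of the class was that of Lamc3, at -0.13 (95% interval -0.36 to 0.10), and at -0.11 without wild-type replicate 4.

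Fibronectin and its partners were close to wild-type. Fn1, a glycoprotein that integrins bind and that blood vessels deposit, was at 10.09, 9.95, 10.15, 9.68 and 9.93 in wild-type and at 9.83, 10.18, 10.11, 10.07 and 10.07 in double knockout animals. The groups overlapped, with a difference of 0.09 (95% interval -0.17 to 0.35) that was 0.02 without wild-type replicate 4, the lowest animal. Nid1, which links laminin to collagen IV, was at -0.02, and at -0.09 without that animal. Sparc, a collagen-binding protein, was at -0.06, and at -0.04 without it, with 6.58 ± 0.05 and 6.53 ± 0.07 (SD, n = 5 each).

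Integrin subunits had values on both sides of 0. Among alpha subunits 5 of 6 were below 0 (median -0.08, or -0.06 without wild-type replicate 4). Itga6, the alpha chain of laminin receptors, was at -0.10, at -0.12 without wild-type replicate 4, and at -0.03 without wild-type replicate 3, whose 8.40 was the highest of all 10 arrays. Itga8, a receptor subunit for fibronectin and related ligands, was at 0.05, and at 0.00 without wild-type replicate 4. Itgb8, the beta subunit with which radial glia activate TGF-beta, measured 8.43, 8.31, 8.52, 8.14 and 8.45 in wild-type and 8.58, 8.23, 8.35, 8.72 and 8.61 in double knockout animals. The difference of 0.13 (95% interval -0.15 to 0.40) was 0.07 without wild-type replicate 4, and the groups overlapped. Itgb6, an epithelial beta subunit, had low values in all animals, between 3.43 and 3.87, with a difference of -0.04, or 0.02 without that animal. Its partner Itgav, which lies outside the rule, was at -0.07 (limma's adjusted p = 0.920), and at -0.12 without it. Itgb3bp was at 0.15, and at 0.06 without wild-type replicate 4.

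ADAMTS and ADAMTS-like genes were below 0 in 11 of 15, with a median of -0.03, and of -0.04 without wild-type replicate 4. Adamts15, a protease of proteoglycans, was the lowest of them. It measured 6.78, 6.70, 7.04, 6.77 and 6.83 in wild-type and 6.68, 6.62, 6.37, 6.69 and 6.76 in double knockout animals. The difference was -0.20 (SE 0.111), with an exact permutation p of 0.0159 and limma's adjusted p = 0.840, and -0.21 without wild-type replicate 4. The greatest positive value was 0.08 for Adamts19, which was 0.07 without that animal, and Adamts17 was at 0.06 and 0.01. Adamts3, which trims fibrillar procollagens, was at -0.11, and at -0.19 without wild-type replicate 4.

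Scores by animal showed which pups carried these values. A score is the mean, over the genes of a class, of each gene's deviation from its own mean over 10 animals. The collagen score ran from -0.01 to 0.23 in wild-type and from -0.11 to -0.04 in double knockout animals, and the groups did not overlap. Because the collagens were grouped after their values had been seen, this separation is a description only. Wild-type replicate 1 was nearest to the double knockout, and wild-type replicate 4 was highest. Without that replicate the wild-type maximum was 0.10. Double knockout replicate 1 was lowest, and its value was the lowest double knockout value in 26 of the 59 genes and in 2568 of all 13534 named genes. The score of all 59 genes did not overlap either, from -0.004 to 0.063 in wild-type and from -0.087 to -0.013 in the double knockout. The gap was narrow, and the 59 genes were chosen with earlier results known. How often scores of other gene sets of that size separate was not determined, so this too is a description only. Laminin scores overlapped, from -0.04 to 0.07 in wild-type and from -0.14 to 0.05 in the double knockout.

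Wild-type replicate 4 did not move all classes one way. Among the 24 collagens it was the highest wild-type animal for 19 and the lowest for 3. Among the 35 other genes it was the highest for 8 and the lowest for 15. Over all 13534 named genes it was the highest for 4150 and the lowest for 4134. Its deviation also went with signal. It was below the mean of the other wild-type animals in 10 of 10 members averaging 8 or more (median deviation -0.27), and above it in 7 of 10 members averaging under 6 (median 0.18). In the 39 members averaging 6 to under 8 it was above that mean in 25 and below it in 14 (median 0.07). All named genes gave medians of -0.17 at 8 or more, -0.025 at 6 to under 8 and 0.145 under 6. The part of this in the collagen values was not tested. Without that animal the collagen median was -0.10 in place of -0.13.

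**Figure D3:**
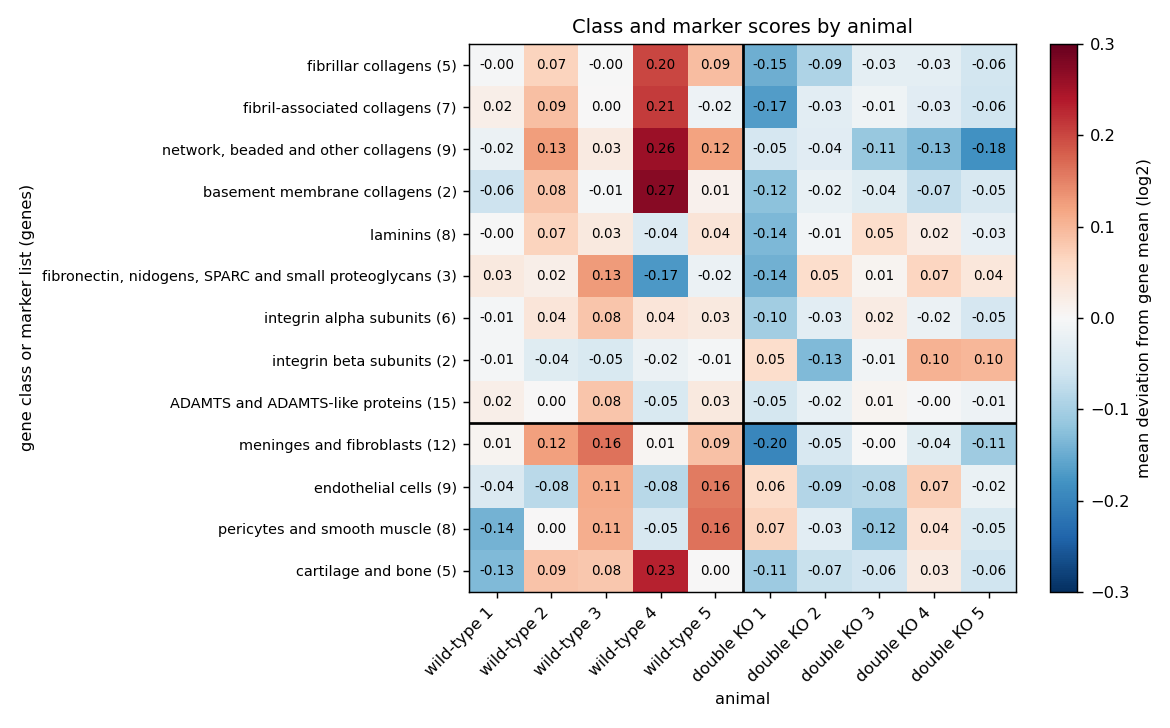
Scores of the matrix classes (upper rows) and of marker lists of other cell types (lower rows) for the 10 animals, with the number of genes in brackets; each cell gives the mean deviation from the gene means in log2, red above and blue below 0. Wild-type replicate 4 is highest in the rows of all 4 collagen classes shown, at 0.20 to 0.27, and double knockout replicate 1 is lowest in the meningeal row, at -0.20.

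Marker genes of the cells that make matrix were set beside these scores. The list of meningeal and fibroblast markers had 12 of 14 genes measured. Of these, 12 of 12 were below 0, with a median of -0.18 (-0.17 without wild-type replicate 4). Over all named genes 60.3% were below 0, and 61.8% without that animal. None of the 12 passed limma's test, and the lowest adjusted p was 0.790. At an unadjusted p under 0.05 limma gave 1 of the 12, and 3 without wild-type replicate 4, all lower. Over all named genes 1.54% were lower at that threshold, and 1.36% without that animal. Foxc1, a transcription factor of the meninges, was at 8.69 to 8.74 in wild-type and 8.33 to 8.58 in double knockout animals, and these did not overlap. No other gene of the 12 separated the groups, and 0.754% of all named genes separated as lower. Ptgds, a prostaglandin synthase of the meninges, was at -0.26 and Crabp2, a retinoic acid binding protein, at -0.19, or -0.31 and -0.25 without wild-type replicate 4. The score of the list ran from 0.01 to 0.16 in wild-type and from -0.20 to -0.002 in the double knockout, again without overlap. The list was chosen with earlier results known and no background of other lists of that size is given, so this separation is a description only. The lowest wild-type mean among the 12 was 6.49, that of Prrx1.

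The other lists gave values on both sides of 0 or rested on few genes, and several counts were higher without wild-type replicate 4. Endothelial markers had 4 of 9 below 0, and 7 of 9 without that animal (medians 0.00 and -0.03, scores from -0.08 to 0.16 in wild-type and -0.09 to 0.07 in the double knockout). Markers of pericytes and smooth muscle had 4 of 8 below 0, and 6 of 8 without it (medians -0.004 and -0.04). Neuronal markers had 4 of 9 below 0, and 7 of 9 without it (medians 0.03 and -0.04). Those of microglia had 6 of 7 (median -0.05, and -0.04 without it) and those of radial glia and astrocytes 5 of 7, or 4 of 7 without it (medians -0.03 and -0.07). Choroid plexus markers had 4 of 4 in both fits (medians -0.14 and -0.19), with scores from -1.25 to 0.85 over all animals. Cartilage and bone markers had 4 of 5 below 0 in both fits (medians -0.09 and -0.06), and all 5 averaged under 6. Of the red blood cell list 1 gene was measured, at -0.12, or -0.06 without that animal. None of these genes passed limma's test, and 0 had an unadjusted p under 0.05.

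Across the 10 animals the fibrillar collagen score was compared with 8 marker scores. The permutations moved animals across genotypes, so each p also reflects any difference between groups that the scores share. No p is given for relations after group means were subtracted. With the meningeal score Pearson's r over the animals was 0.61 (permutation p = 0.0610, adjusted over 8 relations 0.244) and Spearman's rho 0.81 (permutation p = 0.00676, adjusted 0.0541). Without the 2 animals farthest from the median r was 0.58. Without wild-type replicate 4 r was 0.84 (permutation p = 0.00519, adjusted 0.0415) and rho 0.90. After each group's mean had been subtracted, r was 0.07, and 0.58 when wild-type replicate 4 was left out as well, so 1 animal decided the value within groups. With the cartilage and bone score r was 0.81 (permutation p = 0.00517, adjusted 0.0414) and rho 0.73 (permutation p = 0.0205, adjusted 0.0819). That relation rested on few animals, with r = 0.47 without the 2 farthest and 0.60 without wild-type replicate 4 (permutation p = 0.0919). After each group's mean had been subtracted, its r was 0.75, and 0.48 when wild-type replicate 4 was left out as well. The other 6 lists gave r between -0.16 and 0.17, with adjusted permutation p of 0.980 each. The part of meningeal tissue in the collagen values was not tested.

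**Figure D4:**
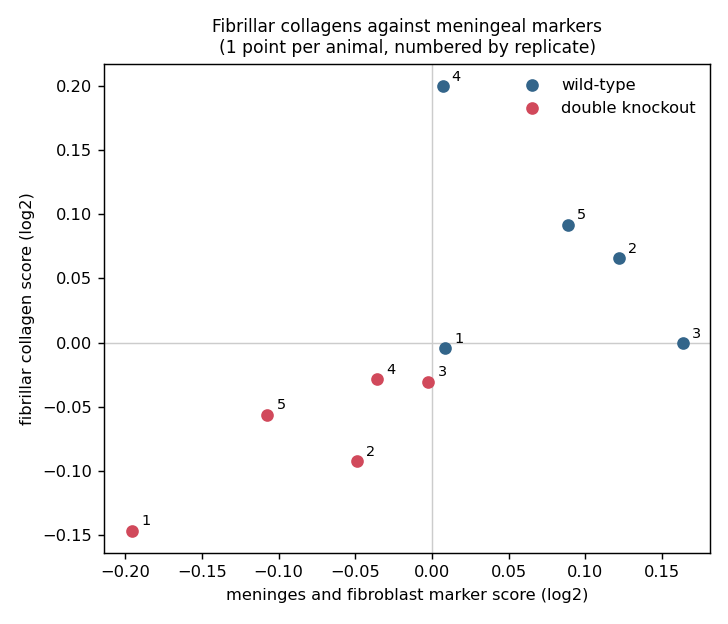
Fibrillar collagen score (vertical axis, log2) against the score of 12 meningeal and fibroblast markers (horizontal axis, log2), 1 point per animal, numbered by replicate. The 5 double knockout animals lie below 0 on both axes, and wild-type replicate 4 lies highest, at 0.20, with a marker score of 0.01.

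Genes that act on the same matrix but lie outside the rule were read from lists. Enzymes and chaperones of collagen synthesis and cross-linking had 16 of 23 genes measured and 12 of 16 below 0, or 14 of 16 without wild-type replicate 4 (medians -0.06 and -0.05). Plod1, a lysyl hydroxylase of collagen, was at -0.21, Crtap, a part of the prolyl 3-hydroxylase complex, at -0.15, and P3h1, its enzyme, at -0.14. Without that animal they were at -0.23, -0.09 and -0.14. Other matrix glycoproteins and proteoglycans had 13 of 20 below 0, or 15 of 20 without it (medians -0.03 and -0.07). The thrombospondin Thbs2 was at -0.29, Emilin1, of elastic fibres, at -0.16 and Mgp, an inhibitor of calcification, at 0.13. Without that animal they were at -0.39, -0.09 and 0.16. Adhesion proteins that join integrins to the cytoskeleton had 9 of 15 below 0, or 11 of 15 without it (medians -0.05 in both fits). Fermt2, an integrin activator, was at -0.13, and the adaptors Zyx and Pxn were at -0.12 and -0.10. Without that animal they were at -0.20, -0.07 and -0.09. Matrix metalloproteinases and their inhibitors had 2 of 5 below 0, or 3 of 5 without it (medians 0.00 and -0.05). The proteases Mmp17 and Mmp14 were at -0.17 and 0.03 and the inhibitor Timp4 at -0.05. Without that animal they were at -0.11, 0.03 and -0.07. The dystroglycan receptor had 2 of 5 below 0, and 4 of 5 without wild-type replicate 4 (medians 0.00 and -0.03), with Dmd, which encodes dystrophin, at 0.22, the glycosyltransferase gene Pomt1 at -0.08 and the sarcoglycan gene Sgce at 0.07. Without that animal they were at 0.15, -0.13 and -0.03. No gene of these lists passed limma's test, and the lowest adjusted p among them was 0.824. At an unadjusted p under 0.05 limma's count was 0, and 1 of the matrix glycoproteins, lower, without wild-type replicate 4. Over all named genes 1.36% were lower in that fit.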

How the data were processed

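Expression was measured with 1 exon array per animal, in 5 wild-type and 5 double knockout pups. The deposited values are on a log2 scale. The submitters' processing notes name RMA, Affymetrix Expression Console and build mm8; versions: not given in the sources used here. Values carry at most 2 decimals, and array medians still differed after the authors' normalization. The number of arrays limits the precision. The table held 65529 probe sets: 15419 carried 1 gene symbol in the platform annotation, 961 several and 49149 none. The brightest probe set stood for a gene. All 59 members matched the RefSeq gene table of GRCm38.p6, and 0 were out of place among the 20 nearest named probe sets on either side.

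The test was limma's moderated fit (lmFit, then eBayes; limma 3.58.1, R 4.3.3) without covariates or a filter, and p-values were adjusted by Benjamini-Hochberg over all probe sets, two-sided. Single genes had two-sided exact permutation tests (scipy 1.17.1), and relations between scores 100000 permutations. The p-values set the difference between groups against the spread between these animals. No label gives the litter of an animal, so a spread between litters was not separated from it.

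Members and lists were chosen with earlier results of these data known. Named in full by a written rule were key matrix genes, any gene past the threshold, the 6 highest and 6 lowest differences, the 6 with the largest residual SD and genes changing sign without wild-type replicate 4 at a size of at least 0.1; of pathway lists, up to 3 genes with the largest differences. Other names were picked after their values were seen. Alternatives were quantile normalization, median centring, a mean of at least 6, named probe sets only, the mean over a gene's probe sets, trended and robust moderation, a block of nearest animal numbers and leaving out each array.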

Additional observations from a re-analysis of the deposited data

Results flagged for a closer look

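A total of 66 groups of 5 values, from the genes named in full and the class scores, were searched for a single value distant from its group, where the gap to the nearest value exceeds 0.71 of the group's range. Chance gives about 1 in 20 such groups, or 3.3, if groups are independent and not selected, and 5 were found. Here some genes were named for a large spread, and the scores share genes with them. The number 3.3 is therefore only a rough guide. Col3a1 was at 8.03 in wild-type replicate 5, against 7.91 to 7.94 in the other wild-type animals, a gap of 0.09. Col9a1 was at 6.61 in wild-type replicate 4, against 5.84 to 6.00. Itga6 was at 8.40 in wild-type replicate 3, against 7.97 to 8.08. Nid1 was at 8.56 in double knockout replicate 1, against 8.75 to 8.80 in the other double knockout animals. The score of Fn1, Nid1 and Sparc was -0.145 in the same animal, against 0.01 to 0.07.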

How the results depend on the processing

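No gene of the 59 passed under any of 17 alternatives. At an unadjusted p under 0.05, 1 was lower as reported, 5 among named probe sets only, 3 after quantile normalization, median centring, the filter on a mean of at least 6 or trended and robust moderation, 2 with the replicate block, 0 with the mean over a gene's probe sets and 1 to 2 over the omissions. The share of all named genes is given only for the fit as reported and without wild-type replicate 4, so the other counts have no background beside them. The number below 0 ran from 42 to 50 over the 10 omissions of 1 array and from 38 to 52 otherwise, where 38 is out of the 49 genes averaging at least 6, and the collagens had 22 to 24 of 24 below 0 (17 of 18 in that subset). The median over the 59 genes was -0.09 to -0.05 over the omissions. It was -0.10 after quantile normalization, where the median of all named genes was -0.05 and 67.6% were below 0. Over all probe sets, limma called 5 as reported, 3 among named probe sets only, and 1 to 6 over the omissions. A replicate block by nearest animal number called 2 and left 0 of the 59. In that limma fit Col28a1 had an unadjusted p of 0.0111 (0.202 without the block) and an adjusted p of 0.667. The deviations of these pairs correlated at -0.001 to 0.156, and 3 of 5 wild-type animals were best matched to the animal of nearest number. No label says whether nearest numbers are littermates, and these values do not settle it. If they are, the fit as reported leaves the pairing out. Quantile normalization turned Col12a1 to -0.0079, Lamb1 to -0.0172 and Lamc1 to -0.0120.

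Leaving out 1 array gave Col12a1 from -0.0725 to 0.121, Col6a5 from -0.131 to 0.079, Itga8 from -0.0055 to 0.097, Lama3 from -0.1295 to 0.008, Lama4 from -0.096 to 0.0065, Lamb1 from -0.0355 to 0.072, Lamc1 from -0.017 to 0.063 and Nid1 from -0.0915 to 0.041, each on both sides of 0. Some omission moved Adamts17, Adamts19, Col10a1, Col28a1, Col5a3, Col9a1, Fn1, Itga6, Itgb3bp and Itgb8 by over 1.5 times with the sign kept. Without wild-type replicate 4 the relation of the fibrillar collagen score was 0.179 with choroid plexus, 0.235 with endothelial cells and 0.0281 with neurons, against values below 0 with it. After group means were subtracted, an alternative added after seeing the data, it was -0.369 with microglia, -0.139 with pericytes and smooth muscle and -0.271 with radial glia and astrocytes. With wild-type replicate 4 also left out it was 0.0384 with choroid plexus, 0.0284 with endothelial cells, -0.429 with microglia and -0.0600 with radial glia and astrocytes. The cause of these shifts was not tested. No detection calls were used, so 10 genes averaging under 6 may lie near background.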

Other observations

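Genes whose values followed Col3a1 most closely were ranked over the 10 animals, after each group's mean was subtracted, among 8461 other named genes averaging at least 6. The values are a description without a test, and the points share their arrays. Outside the 59 genes the highest Pearson r belonged to Srp19 (0.87), Arpc1a (0.87), Kcne1l (0.84), Pdgfra (0.84), Klhl29 (0.84), Bag3 (0.84), Gabbr2 (0.84), Abtb2 (0.84), Rpsa (0.83) and Hip1r (0.82). Pdgfra, a receptor of fibroblasts and oligodendrocyte precursors, is the one among them on the list of meningeal and fibroblast markers. Within the 59 genes Lamc1 came first, at 0.77, while Col5a2 reached 0.51 and Col1a2 0.42. The lowest was Adamts7, at -0.82. With 10 points such values arise easily among many genes.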
